A study of Mus musculus with 13 samples.

Results

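Bone morphogenetic protein (BMP) signalling was followed at the mRNA level through 10 genes listed by name: the ligands Bmp2, Bmp4, Bmp6 and Bmp7, the inhibitory SMADs Smad6 and Smad7, and the inhibitor of DNA binding genes Id1, Id2, Id3 and Id4. All 10 were found among the 48795 gene identifiers of the RNA sequencing table, and all 10 passed the filter on low counts in every comparison. The libraries were made from the right brain hemisphere, without olfactory bulb and cerebellum, of 13 mice on postnatal day 11. The 5 nlsYAP5SA mice (NexCre +/- YAP5SAnls +/-) carried 1 copy each of NexCre and of a transgene for a nuclear, phosphorylation-resistant YAP1 that is expressed once Cre removes a STOP cassette. Cre is driven from the Neurod6 (NEX) locus, so recombination is limited to the NEX lineage of neuronal precursors, and a whole hemisphere also holds the cells without it. The 5 control littermates (NexCre -/- YAP5SAnls +/-) carried the silent transgene and no Cre, and 3 C57BL/6 wild-type mice carried neither. All were on a C57BL/6J background, of both sexes, the controls and nlsYAP5SA mice from 2 matings that the labels do not assign, and ependymoma-like tumours form in the nlsYAP5SA brains.

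BMP ligands are secreted dimers that bind paired type I and type II receptor kinases. The type I receptor phosphorylates SMAD1, SMAD5 or SMAD9, which enter the nucleus with SMAD4 and bind regulatory elements of target genes. The ID genes are among the best known direct targets, and ID proteins lack a DNA-binding region and hold basic helix-loop-helix (bHLH) factors, many of them proneural, in inactive dimers. SMAD6 and SMAD7 are induced by the same signal and block the receptor, which closes a negative feedback loop. In the postnatal forebrain BMP signals favour astrocytic over neuronal and oligodendroglial differentiation of progenitors, and are countered by secreted antagonists such as Noggin.

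The libraries held 20871533 to 25524314 estimated counts, and the 10 genes lay between 27 counts (Smad6) and 2588 counts (Id2) in single libraries. Neurod6, whose locus carries the Cre insertion, fell in nlsYAP5SA mice (log2 fold change -0.98, SE 0.09, adjusted p = 2.65e-05), and Yap1 rose slightly (log2 fold change 0.23, SE 0.06, adjusted p = 0.0361), with 22.5 to 26.4 CPM (counts scaled to a common library size) against 20.1 to 22.4 CPM in controls. Markers of several other cell types moved with the genotype, but not of all. No call was made among the 6 excitatory neuron, 4 interneuron, 4 oligodendrocyte precursor, 4 cycling cell and 3 erythroid markers. All 6 reactive astrocyte markers were called higher, but only 5 of the 6 passed the filter between C57BL/6 and control mice. The remaining marker was tested only through the nlsYAP5SA libraries, so its call carries no weight. Summed, the 6 reached 864 to 1130 CPM in nlsYAP5SA libraries, against 245 to 292 CPM in controls and 227 to 292 CPM in C57BL/6 mice. Of 7 microglia markers 6 were called higher (290.4 to 363 CPM summed in controls, 407 to 549 CPM in nlsYAP5SA mice), of 7 astrocyte markers 2 were called higher (1363 to 1838 against 1688 to 2189 CPM), and of 8 endothelial markers none was called higher and 2 lower (233 to 265 against 179.8 to 230.2 CPM). Of 5 ciliated ependymal markers 1, Foxj1, was called higher (all 5 summed to 10.4 to 23.3 against 22.7 to 25.3 CPM), and of 6 mural markers 1 was called higher and 2 lower (241 to 316 against 168 to 267 CPM). The 9 choroid plexus markers, 2 of them called higher, ran from 12.1 to 241 CPM in controls and from 15.4 to 316 CPM in nlsYAP5SA mice. Of the 87 marker genes over all lists, none was at 0 in every library. The 4 Y-linked genes summed to between 91.6 and 131 CPM in all 5 controls, but reached 1 CPM in only 2 of 5 nlsYAP5SA and 2 of 3 C57BL/6 libraries, so that genotype and sex, which the labels do not give, cannot be fully told apart. The part of these shifts in the results was not tested beyond the values given beside them. In whole tissue, fewer cells of a type and less RNA per cell cannot be told apart.

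The first question was whether the 10 genes differed between nlsYAP5SA mice and control littermates. 6 of the 10 were called higher (Bmp4, Bmp6, Smad6, Id1, Id3 and Id4) and none lower, at an adjusted p of 0.05 or less (edgeR, quasi-likelihood fit, Benjamini-Hochberg adjustment over the 16315 genes that passed the filter). Among all these genes 7.36% were called higher and 3.44% lower. In the same 6 genes every nlsYAP5SA library lay above every control, as it did for 6.52% of all genes, and none of the 10 lay wholly below controls (3.54% of all genes). The median log2 fold change was 0.60 over the 10 genes and -0.01 over all genes. The fitted mean was higher in 9 of the 10, against 48.7% of all genes; Smad7 was the exception. The plot of the 10 genes by sample gives every value.

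**Figure D1:**
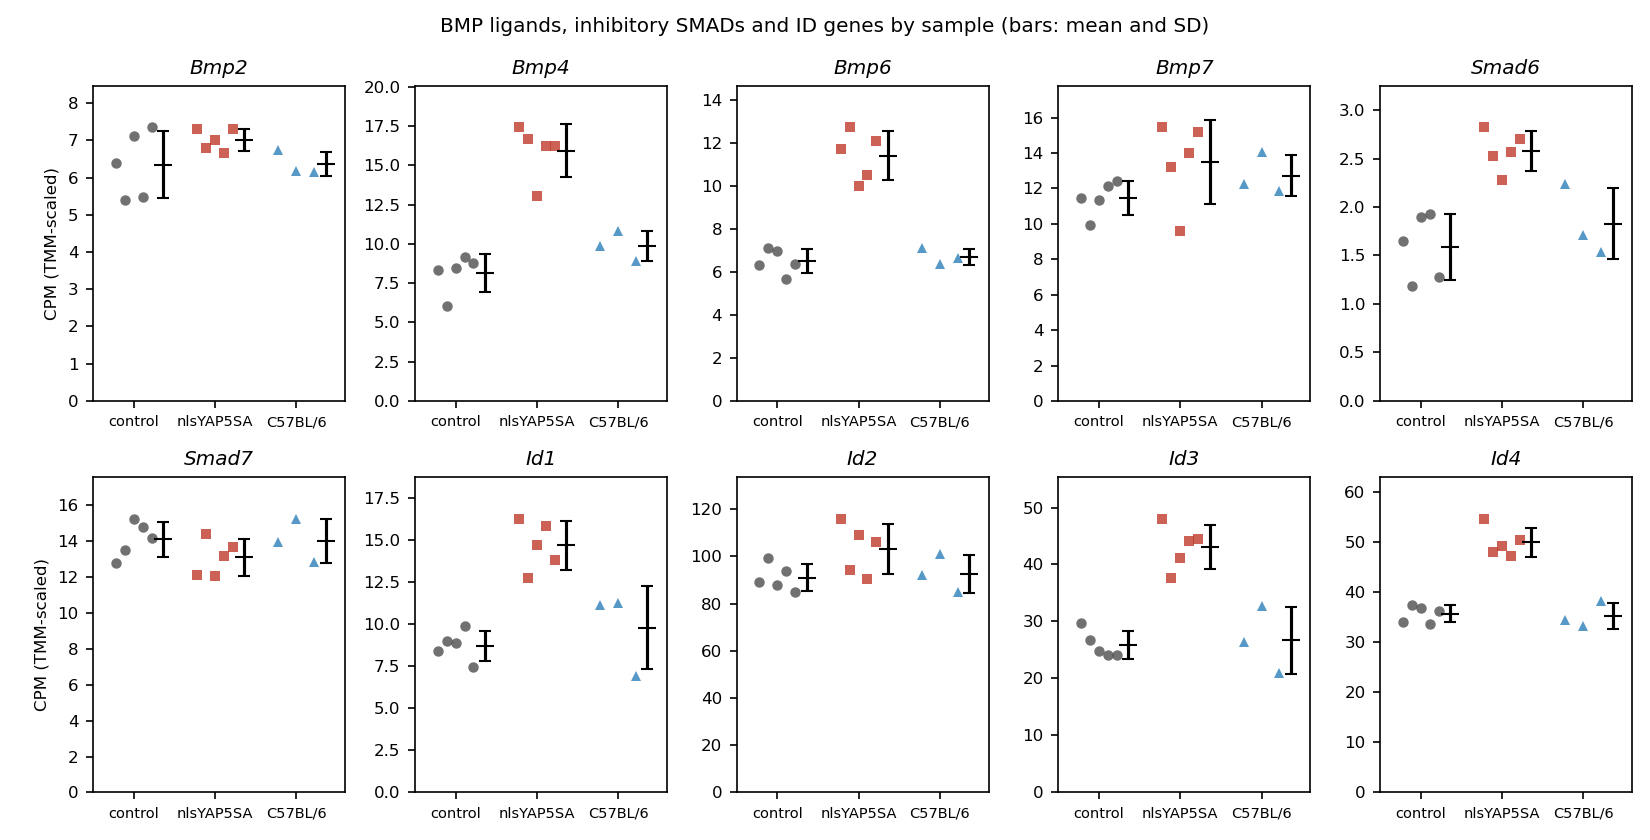
Level of each of the 10 genes in CPM (TMM-scaled, linear axis from 0) in every library of the 5 control (circles), 5 nlsYAP5SA (squares) and 3 C57BL/6 (triangles) mice, with the mean and SD of each group as black bars. Points of nlsYAP5SA and control do not overlap for Bmp4, Bmp6, Smad6, Id1, Id3 and Id4, and overlap for Bmp2, Bmp7, Smad7 and Id2.

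Of the ligands, Bmp4 showed the largest change. Bmp4 (chr14:46383520-46390669, minus strand, GRCm38) encodes a ligand that patterns the dorsal neural tube and drives astroglial differentiation of cultured progenitors. Its level was 8.31, 6.06, 8.43, 9.16 and 8.78 CPM in control replicates 1 to 5, and 17.4, 16.7, 13.04, 16.2 and 16.2 CPM in nlsYAP5SA replicates 1 to 5. The lowest nlsYAP5SA library still stood above the highest control, and the fitted level was 1.97-fold that of controls (log2 fold change 0.98, SE 0.11, adjusted p = 1.47e-04). In C57BL/6 mice it was 9.83, 10.8 and 8.91 CPM, between the other 2 groups for 2 of the 3 libraries.

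Bmp6 (chr13:38345107-38500302, plus strand), a ligand of the same branch as Bmp7 with a well known role in iron sensing in liver, rose nearly as much. Controls held 6.34, 7.12, 6.96, 5.69 and 6.36 CPM, and nlsYAP5SA mice 11.7, 12.7, 9.99, 10.5 and 12.1 CPM. C57BL/6 mice held 7.11, 6.37 and 6.64 CPM, all within the range of the controls. The difference between nlsYAP5SA and control was 1.77-fold (log2 fold change 0.82, SE 0.09, adjusted p = 1.07e-04). Bmp4 and Bmp6 thus stood apart from controls in all 5 nlsYAP5SA libraries, including the 2 libraries with Y-linked transcripts, replicates 3 and 4.

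The other 2 ligands were not called. Bmp2 (chr2:133552159-133562885, plus strand), the closest relative of Bmp4, was at 6.38, 5.39, 7.13, 5.48 and 7.36 CPM in controls and 7.31, 6.78, 7.02, 6.66 and 7.31 CPM in nlsYAP5SA mice (log2 fold change 0.16, 95% confidence interval -0.06 to 0.38, adjusted p = 0.363). The nlsYAP5SA values all lay within the range of the controls. Bmp7 (chr2:172868012-172940321, minus strand), which is made in meninges and choroid plexus as well as in brain tissue, was at 11.5, 9.96, 11.3, 12.1 and 12.4 CPM in controls and 15.5, 13.2, 9.60, 14.0 and 15.2 CPM in nlsYAP5SA mice. Here 4 nlsYAP5SA libraries were above all controls and replicate 3 was below all of them (log2 fold change 0.25, interval -0.01 to 0.51, adjusted p = 0.229). The 8 meningeal fibroblast markers, of which 2 were called higher and 1 lower, summed to 185 CPM in that library, 251 to 292 CPM in the other 4 and 169 to 256 CPM in controls, and their part in the Bmp7 values was not tested. Bmp7 was called in only 1 of 23 alternatives, without nlsYAP5SA replicate 3, at a log2 fold change of 0.35 (adjusted p = 0.0238). Over the 23 its estimate ran from 0.05 to 0.40.

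Of the inhibitory SMADs, Smad6 was called and Smad7 was not. Smad6 (chr9:63953076-64022059, minus strand), which inhibits mainly the BMP branch, was the least abundant of the 10 genes, with 27 to 46 counts per control library. It was at 1.65, 1.18, 1.90, 1.92 and 1.28 CPM in controls and 2.82, 2.53, 2.28, 2.57 and 2.70 CPM in nlsYAP5SA mice, 1.64-fold higher with no overlap (log2 fold change 0.71, SE 0.16, adjusted p = 0.0135). Smad6 is strongly expressed in endothelium. The 8 endothelial markers, of which 2 were called lower, summed to 179.8 to 230.2 CPM in nlsYAP5SA mice and 232.7 to 265.3 CPM in controls. Their part in the Smad6 values was not tested. Its call was lost with the summed Y-linked level as a covariate (0.63, adjusted p = 0.181), among the libraries with Y-linked transcripts alone (0.62, adjusted p = 0.364) and among those with low choroid plexus markers (0.67, adjusted p = 0.305).

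Smad7 (chr18:75367529-75395935, plus strand) is induced by both BMP and TGF-beta and inhibits both. It was at 12.8, 13.5, 15.3, 14.8 and 14.2 CPM in controls, 12.1, 14.4, 12.1, 13.2 and 13.7 CPM in nlsYAP5SA mice and 13.9, 15.3 and 12.8 CPM in C57BL/6 mice. The 3 ranges overlapped, and the interval of the difference from controls ran from a log2 fold change of -0.26 to 0.07 (estimate -0.10, adjusted p = 0.489).

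Among the ID genes, the main transcriptional readout of the pathway, 3 of 4 rose. Id1 (chr2:152736251-152737410, plus strand) was at 8.39, 9.01, 8.90, 9.87 and 7.45 CPM in controls and 16.3, 12.8, 14.7, 15.8 and 13.8 CPM in nlsYAP5SA mice, 1.69-fold higher (log2 fold change 0.76, SE 0.09, adjusted p = 2.09e-04). Id3 (chr4:136143497-136145755, plus strand), the close relative of Id1 with which it acts redundantly in forebrain progenitors and vessels, was at 29.7, 26.8, 24.8, 24.1 and 24.1 CPM in controls and 48.1, 37.7, 41.1, 44.2 and 44.5 CPM in nlsYAP5SA mice, 1.68-fold higher (log2 fold change 0.75, SE 0.08, adjusted p = 6.79e-05). Both genes had every nlsYAP5SA library above every control.

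Id4 (chr13:48261228-48266026, plus strand), which restrains oligodendrocyte differentiation, rose less but with the smallest spread relative to its mean among the ID genes. Its level was 34.2, 37.6, 36.9, 33.7 and 36.2 CPM in controls and 54.7, 48.0, 49.3, 47.3 and 50.5 CPM in nlsYAP5SA mice, 1.41-fold higher (log2 fold change 0.50, SE 0.05, adjusted p = 7.04e-05). Id2 (chr12:25093799-25097140, minus strand), which has many inputs besides BMP in neurons and glia, was at 89.0, 99.4, 87.7, 93.7 and 85.0 CPM in controls and 116, 94.3, 109, 90.5 and 106 CPM in nlsYAP5SA mice. Its groups overlapped, and a log2 fold change of 0.19 (interval 0.04 to 0.35) did not pass the adjustment (adjusted p = 0.119, unadjusted p = 0.0206). It passed in only 2 of 23 alternatives, without nlsYAP5SA replicate 4 (0.24, adjusted p = 0.0428) and with a robust correction for GC content and length (adjusted p = 0.0342). Over the 23 its estimate ran from 0.08 to 0.24.

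Differences between genes of the same role were tested as ratios within a library, which do not depend on normalization. All 13 pairs within the ligands, the inhibitory SMADs and the ID genes were compared between the 5 nlsYAP5SA and 5 control libraries by an exact permutation test, two-sided, whose smallest possible p is 0.00794. The pairs were chosen with the calls above already known. In 8 of the 13 the groups did not overlap (exact permutation p = 0.00794 each, 0.0129 adjusted over the 13). Each of these 8 pairs sets a gene called above against a gene not called, so the ratios are not separate evidence for those calls. The share of ratios without overlap among other genes was not computed. Bmp4 gained 0.82 (log2) on Bmp2 and 0.75 on Bmp7, and Bmp6 gained 0.65 on Bmp2 and 0.59 on Bmp7. The ratios of the other 2 ligand pairs overlapped between the groups, with differences of 0.16 for Bmp4 to Bmp6 (exact permutation p = 0.397) and 0.06 for Bmp7 to Bmp2 (exact permutation p = 0.667).

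Smad6 gained 0.84 (log2) on Smad7, from a mean ratio of -3.18 ± 0.29 (SD, n = 5) in controls to -2.34 ± 0.15 in nlsYAP5SA mice, with an exact permutation p of 0.00794. Id1, Id3 and Id4 gained 0.57, 0.56 and 0.31 on Id2. Id1 and Id3 kept nearly the same ratio to each other (difference 0.02, exact permutation p = 0.833), and each gained on Id4, by 0.27 and 0.25 with overlapping groups (exact permutation p = 0.0238, 0.031 adjusted). When any 1 library was left out, each of these 8 pairs stayed at the smallest p then possible, 0.0159. Among libraries with Y-linked transcripts (2 nlsYAP5SA, 5 control) the same 8 pairs did not overlap, with differences of 0.31 to 0.83, but 2 against 5 cannot go below 0.0952.

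**Figure D2:**
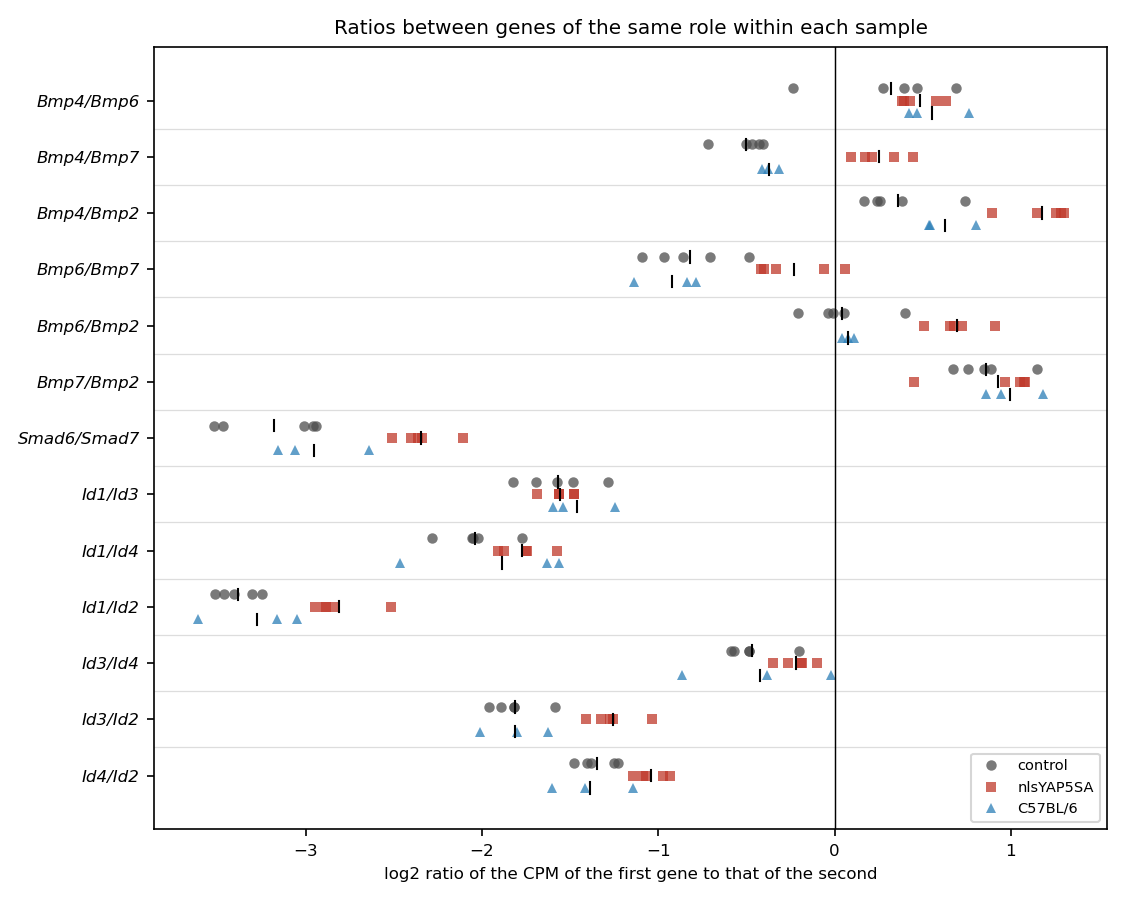
Log2 ratio of the CPM of 2 genes of the same role in every control (circles), nlsYAP5SA (squares) and C57BL/6 (triangles) library, 1 row per pair, with black ticks at the group means. The squares lie to the right of all circles for 8 pairs: Bmp4 and Bmp6 over Bmp7 and Bmp2, Smad6 over Smad7, and Id1, Id3 and Id4 over Id2.

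The 3 C57BL/6 mice served as a second reference, and as a check on the silent transgene. Between C57BL/6 and control mice none of the 10 genes was called, against 0.169% of all 16546 genes tested (28 genes, 0.0484% higher and 0.121% lower), and in none did the groups stand apart (1.96% of all genes above and 1.38% below). At an unadjusted p of 0.05 or less there were also none of the 10, against 625 of all genes, and DESeq2's Wald test called none of the 10 either. For 9 of the 10 genes the fitted mean was higher in C57BL/6 mice (50.7% of all genes), but Smad7 was 1 of them by a log2 fold change of 0.00, and the direction was kept in all 21 alternatives for Bmp4, Bmp7, Smad6 and Id1 alone. Bmp4 had the largest difference, a log2 fold change of 0.28 with an interval of -0.03 to 0.60 (unadjusted p = 0.0718). The widest interval was that of Smad6, -0.29 to 0.72, so that a difference in Smad6 as large as in nlsYAP5SA mice would fall just within it.

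Between nlsYAP5SA and C57BL/6 mice 4 of the 10 genes were called higher, against 4.16% of all 16641 genes tested, and none lower. The fitted mean was again higher in 9 of the 10 (47.9% of all genes). The genes called were Bmp4 (log2 fold change 0.68, SE 0.12, adjusted p = 0.00839), Bmp6 (log2 fold change 0.75, SE 0.11, adjusted p = 0.00408), Id3 (log2 fold change 0.68, SE 0.14, adjusted p = 0.0186) and Id4 (log2 fold change 0.49, SE 0.08, adjusted p = 0.00494). Id1 was at 11.1, 11.3 and 6.93 CPM and Smad6 at 2.24, 1.71 and 1.54 CPM in C57BL/6 mice, below every nlsYAP5SA library, yet neither passed the adjustment. Their log2 fold changes were 0.58 (adjusted p = 0.0654) and 0.49 (adjusted p = 0.135). Id1 passed in 6 of 21 alternatives, among them DESeq2's Wald test (adjusted p = 0.0106) and the fit of all 13 libraries (adjusted p = 0.0235), and Smad6 in none. The groups did not overlap for the same 6 genes as against controls, which holds for 8.0% of all genes (7.56% lay wholly below), in a comparison that shares its nlsYAP5SA libraries with the first. In the 4 libraries with Y-linked transcripts (2 nlsYAP5SA, 2 C57BL/6) none of the 10 passed, with log2 fold changes of 0.64, 0.57, 0.84 and 0.41 for Bmp4, Bmp6, Id3 and Id4. Id3 also missed the threshold without nlsYAP5SA replicate 5 (adjusted p = 0.053) and without C57BL/6 replicate 1 (adjusted p = 0.0847). Bmp6 missed it among the libraries with low choroid plexus markers (0.67, adjusted p = 0.133), and with the replicate number as a block none of the 10 passed.

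**Figure D3:**
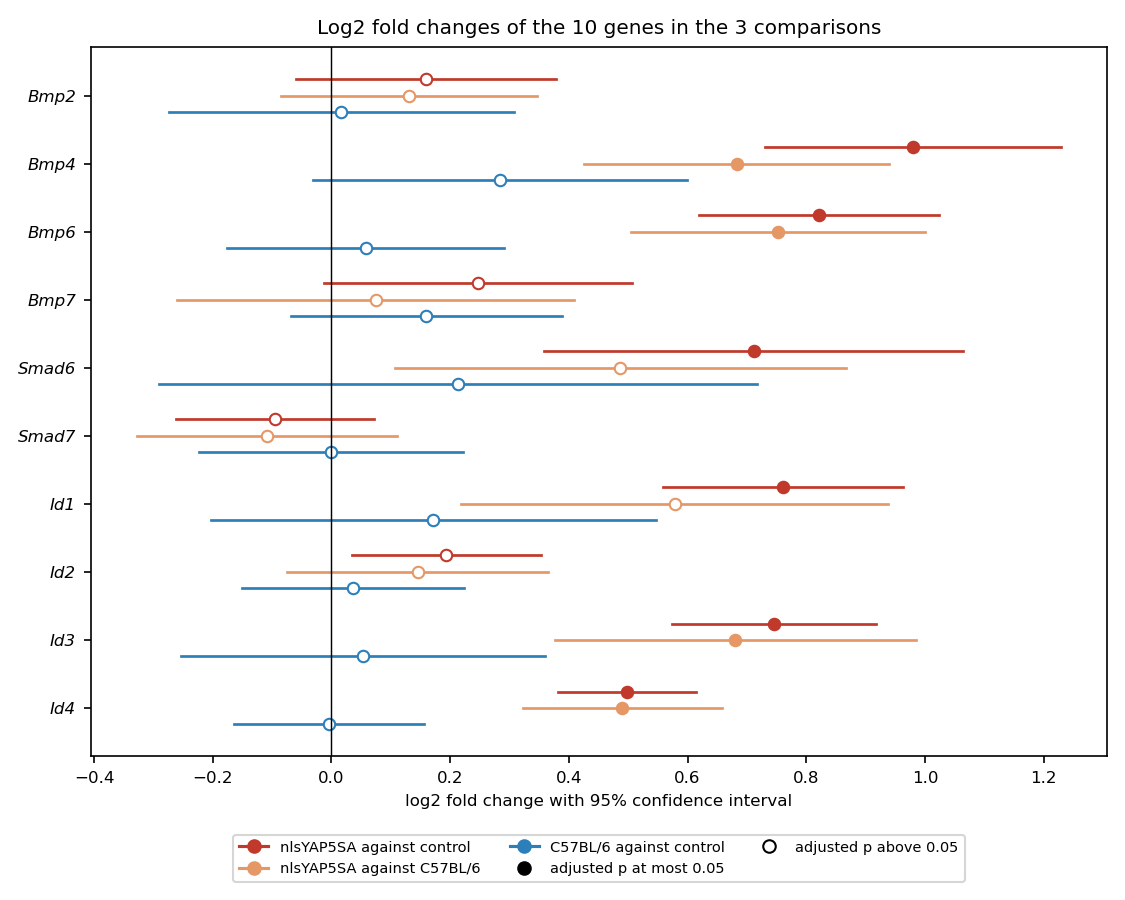
Log2 fold change (points) and 95% confidence interval (lines) of the 10 genes in the 3 comparisons, from edgeR's quasi-likelihood fits. Filled points have an adjusted p of 0.05 or less: 6 genes against control, 4 against C57BL/6, and none between C57BL/6 and control.

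Levels were compared between genes per kilobase of merged exons. In controls Id2 was the most abundant, at 37.3 ± 2.32 CPM per kilobase (mean ± SD, n = 5), followed by Id3 (14.5 ± 1.34), Id4 (9.27 ± 0.444) and Id1 (7.52 ± 0.765), with no overlap between neighbours. Bmp4 came next (3.62 ± 0.539 CPM per kilobase), its range overlapping that of Smad7 (3.12 ± 0.217), which in turn overlapped Bmp7 (2.85 ± 0.238). Bmp2 (1.79 ± 0.255) and Bmp6 (1.66 ± 0.147) could not be separated, and Smad6 was lowest (0.495 ± 0.107). All 4 ID genes thus exceeded all 4 ligands in each of the 3 groups. In nlsYAP5SA mice Id1 (12.7 ± 1.25 CPM per kilobase) reached the range of Id4 (12.99 ± 0.762), Bmp4 (7.08 ± 0.750) stood clear of every other ligand and SMAD, and Bmp6 (2.92 ± 0.290) rose from a level overlapping Bmp2 into the ranges of Bmp7 (3.36 ± 0.587) and Smad7 (2.90 ± 0.223). In C57BL/6 mice, too, the ranges of Id1 and Id4 overlapped and Bmp4 stood clear of the other ligands and SMADs. These are RNA and not protein levels.

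Promoter windows from RefSeq (GRCm38.p6, 250 bases before to 50 after the start) were found for 6 of the 10 genes: Bmp4, Bmp6, Smad6, Id2, Id3 and Id4. They were searched on both strands for 3 short motifs: GTCTAGAC, a palindromic SMAD element, GGCGCC, a GC-rich element bound by BMP SMADs, and GGAATG, the core bound by the TEAD partners of YAP1. Of 32851 promoter windows of this length 0.213% hold the first, 11.9% the second and 14.7% the third. Smad6 holds GTCTAGAC across its start, from base -4 to base 4. Id4 holds GGCGCC from -148 to -143 and the TEAD core (on the reverse strand, printed as its complement) from -226 to -221. GGCGCC also occurs in Id2 (-231 to -226) and GGAATG in Id3 (-203 to -198), while Bmp4 and Bmp6 hold none of the 3. The 250 bases before the RefSeq start lie wholly within annotated exons of the same gene for Id3 and Bmp6, and in part (161 bases) for Id2. The motifs do not overlap within any window, and a match is a description of letters, not a bound site. The windows of 3 called genes up to the first exon (for Smad6 with its first 4 exon bases) are given 5′ to 3′, with motif letters in capitals, since they contrast a palindrome, a pair of motifs and none.
Smad6 (chr9:64022056-64022309, minus strand): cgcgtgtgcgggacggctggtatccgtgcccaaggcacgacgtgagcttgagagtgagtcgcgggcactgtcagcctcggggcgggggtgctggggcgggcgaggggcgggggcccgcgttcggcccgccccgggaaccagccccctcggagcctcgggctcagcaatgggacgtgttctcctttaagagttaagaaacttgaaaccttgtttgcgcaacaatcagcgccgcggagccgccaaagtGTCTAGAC
Id4 (chr13:48260866-48261115, plus strand): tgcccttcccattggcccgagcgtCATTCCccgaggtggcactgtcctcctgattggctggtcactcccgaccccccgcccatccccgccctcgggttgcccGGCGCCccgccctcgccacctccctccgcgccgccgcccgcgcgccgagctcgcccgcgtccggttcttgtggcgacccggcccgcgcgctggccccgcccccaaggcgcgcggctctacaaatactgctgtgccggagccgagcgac
Bmp4 (chr14:46390670-46390919, minus strand): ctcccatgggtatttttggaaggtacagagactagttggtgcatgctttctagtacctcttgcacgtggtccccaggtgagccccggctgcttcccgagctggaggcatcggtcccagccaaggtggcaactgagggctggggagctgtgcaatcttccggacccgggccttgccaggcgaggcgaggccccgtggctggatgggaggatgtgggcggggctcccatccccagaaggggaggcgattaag

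The rest of the pathway was described through 60 further genes in 7 lists, of which 52 passed the filter against controls. Gdf6 passed it only through the nlsYAP5SA libraries and is left out of the counts. Of the other 51, 13 were called higher against controls and 3 lower, beside 7.36% and 3.44% of all genes. The 3 lower include Neurod6, whose fall cannot be told apart from the Cre insertion in its locus. No gene of these lists was called between C57BL/6 and control mice (52 tested, against 0.169% of all genes). Between nlsYAP5SA and C57BL/6 mice 7 were called higher and 1, again Neurod6, lower (52 tested, against 4.16% and 2.22%). With the summed Y-linked level in the fit, 7 of the 16 genes called against controls were still called. Among the libraries with Y-linked transcripts 3 were (Bmp3, Fst and Neurod6). Among the libraries with low choroid plexus markers 6 were. Leaving out single libraries left 10 (without nlsYAP5SA replicate 5) to 15 of the 16. Neurod6 kept its call in each of these settings and is counted in them. The plot of the other pathway genes shows each estimate.

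Of 10 other ligands 5 passed the filter, and Bmp3 rose. Gdf6, a dorsal BMP-type ligand of the neural tube and eye, was at 0.329, 0.197, 0.211, 0.167 and 0.237 CPM in controls, 2.197, 2.06, 0.990, 1.70 and 2.28 CPM in nlsYAP5SA mice and 0.179, 0.143 and 0.243 CPM in C57BL/6 mice. With 4 to 8 counts per control library and 23 to 49 in nlsYAP5SA libraries, it had to differ in order to be tested, so neither its fold nor a test is given. Bmp3, an atypical ligand that opposes BMP2 and BMP4 in bone, went from 15.5, 16.9, 22.01, 18.4 and 20.4 CPM to 34.7, 32.3, 28.7, 36.3 and 31.7 CPM (log2 fold change 0.83, SE 0.09, adjusted p = 1.05e-04). Bmp3 was also called against C57BL/6 mice, at a log2 fold change of 0.69.

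Of 11 receptors and co-receptors 10 were tested, and 4 were higher and 1 lower. The type I receptors Bmpr1a (log2 fold change 0.46, SE 0.10, adjusted p = 0.00835) and Bmpr1b (log2 fold change 0.53, SE 0.10, adjusted p = 0.00336), the main BMP receptors of neural progenitors, were higher in every nlsYAP5SA library than in any control, at 91.7 to 122 against 63.4 to 91.1 CPM and 31.0 to 36.4 against 19.6 to 29.0 CPM. The type II receptors Acvr2a (0.25, adjusted p = 0.0403) and Acvr2b (0.59, adjusted p = 0.046) were called by a narrow margin and kept the call in 10 and 7 of 23 alternatives. Eng, an endothelial co-receptor, was lower with overlapping groups (log2 fold change -0.29, SE 0.08, adjusted p = 0.0358, called in 11 of 23 alternatives), as were 2 of the 8 endothelial markers. Of these 5, only Bmpr1a and Bmpr1b were also called against C57BL/6 mice, and with the Y-linked covariate none of the 5 kept its call against controls (Bmpr1a 0.39, adjusted p = 0.155; Bmpr1b 0.51, adjusted p = 0.0579).

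Both called SMADs among the 4 signal-transmitting ones were small changes: Smad9 (log2 fold change 0.39, SE 0.10, adjusted p = 0.0224) and Smad1 (log2 fold change 0.21, SE 0.06, adjusted p = 0.0458). Smad5 and the common partner Smad4 had log2 fold changes of 0.05 and 0.18 and were not called. The call of Smad1 was kept in 7 and that of Smad9 in 16 of 23 alternatives, and Smad9 lost it with the Y-linked covariate (0.33, adjusted p = 0.269). Neither was called against C57BL/6 mice.

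Of 15 antagonists 13 were tested, and 4 were higher and none lower. Fst, follistatin, which binds activins and some BMPs, rose from 0.905, 1.22, 0.548, 0.962 and 0.807 CPM (controls) to 4.39, 5.71, 4.18, 4.70 and 4.56 CPM (nlsYAP5SA) (5.29-fold, log2 fold change 2.40, SE 0.18, adjusted p = 5.71e-06), and was at 1.21, 0.666 and 0.729 CPM in C57BL/6 mice. Every nlsYAP5SA library was above every library of the other 2 groups. Grem1, a secreted antagonist of BMP2 and BMP4, was at 3.88 to 4.26 CPM against 2.11 to 2.89 CPM in controls (log2 fold change 0.67, SE 0.11, adjusted p = 0.00184), Nbl1, of the same family, rose by 0.59 (SE 0.09, adjusted p = 7.49e-04), and Crim1, a membrane protein that holds back BMP secretion, rose by 0.48 (SE 0.09, adjusted p = 0.0042) on the log2 scale. Crim1 lost its call with the Y-linked covariate (0.39, adjusted p = 0.11) and among the libraries with Y-linked transcripts (0.37, adjusted p = 0.275). Grem1 and Nbl1 lost theirs among the libraries with Y-linked transcripts (adjusted p = 0.101 and 0.0532) and among those with low choroid plexus markers (adjusted p = 0.0916 and 0.0646). Nog, the classical antagonist of the subventricular zone, had a log2 fold change of 0.22 (interval -0.01 to 0.46, adjusted p = 0.234), and Chrdl1, an antagonist made by astrocytes, of -0.09 (adjusted p = 0.735). Against C57BL/6 mice Fst (2.42, adjusted p = 2.70e-04) and Grem1 (0.60, adjusted p = 0.0219) were called.

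Of 5 intracellular regulators only Ski, a co-repressor of SMADs, was called (log2 fold change 0.18, SE 0.05, adjusted p = 0.0242), as it was in 11 of 23 alternatives. Of 4 further BMP target genes Atoh8, a bHLH gene induced by BMP in endothelium and liver, was called, at 1.40, 0.905, 0.717, 0.962 and 0.949 CPM in controls against 3.99, 2.85, 1.94, 2.35 and 3.31 CPM in the nlsYAP5SA libraries (2.93-fold, log2 fold change 1.55, SE 0.23, adjusted p = 8.83e-04). No control reached the lowest nlsYAP5SA library, and the call was lost among the libraries with Y-linked transcripts alone (1.12, adjusted p = 0.0873). Msx1 and Msx2, homeobox targets of BMP in dorsal neural tube, had log2 fold changes of 0.48 (adjusted p = 0.06) and 0.63 (adjusted p = 0.174) and Hey1 of -0.05 (adjusted p = 0.654), none of them called.

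Of the bHLH factors held or opposed by ID proteins 11 were tested, and none was called higher and 2 lower, with a median log2 fold change of -0.05. The 2 include Neurod6, whose fall cannot be told apart from the Cre insertion. Neurod6, the carrier of the Cre insertion, fell from 92.0 to 111 CPM to 38.6 to 56.9 CPM, and Olig1, an oligodendrocyte lineage factor, from 134 to 159 CPM to 111 to 123 CPM (log2 fold change -0.29, SE 0.06, adjusted p = 0.00649). Olig1 lost its call with the Y-linked covariate (-0.31, adjusted p = 0.0582), with the robust correction for GC content and length (-0.19, adjusted p = 0.0557) and in both subsets of libraries. Of 4 markers of newly formed oligodendrocytes 1 was called lower (371 to 503 CPM summed in controls, 329.8 to 437 CPM in nlsYAP5SA mice), and of 6 of myelinating ones none was called (2090.1 to 3523 against 1333 to 2852 CPM); their part in the Olig1 values was not tested. The E proteins that ID proteins bind directly had log2 fold changes of -0.05 (Tcf3), -0.01 (Tcf4) and 0.20 (Tcf12), with adjusted p of 0.742, 0.917 and 0.146. Of the bHLH genes Neurod1, Neurod2 and Neurog2 none was called, the estimates running from -0.14 to 0.09.

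**Figure D4:**
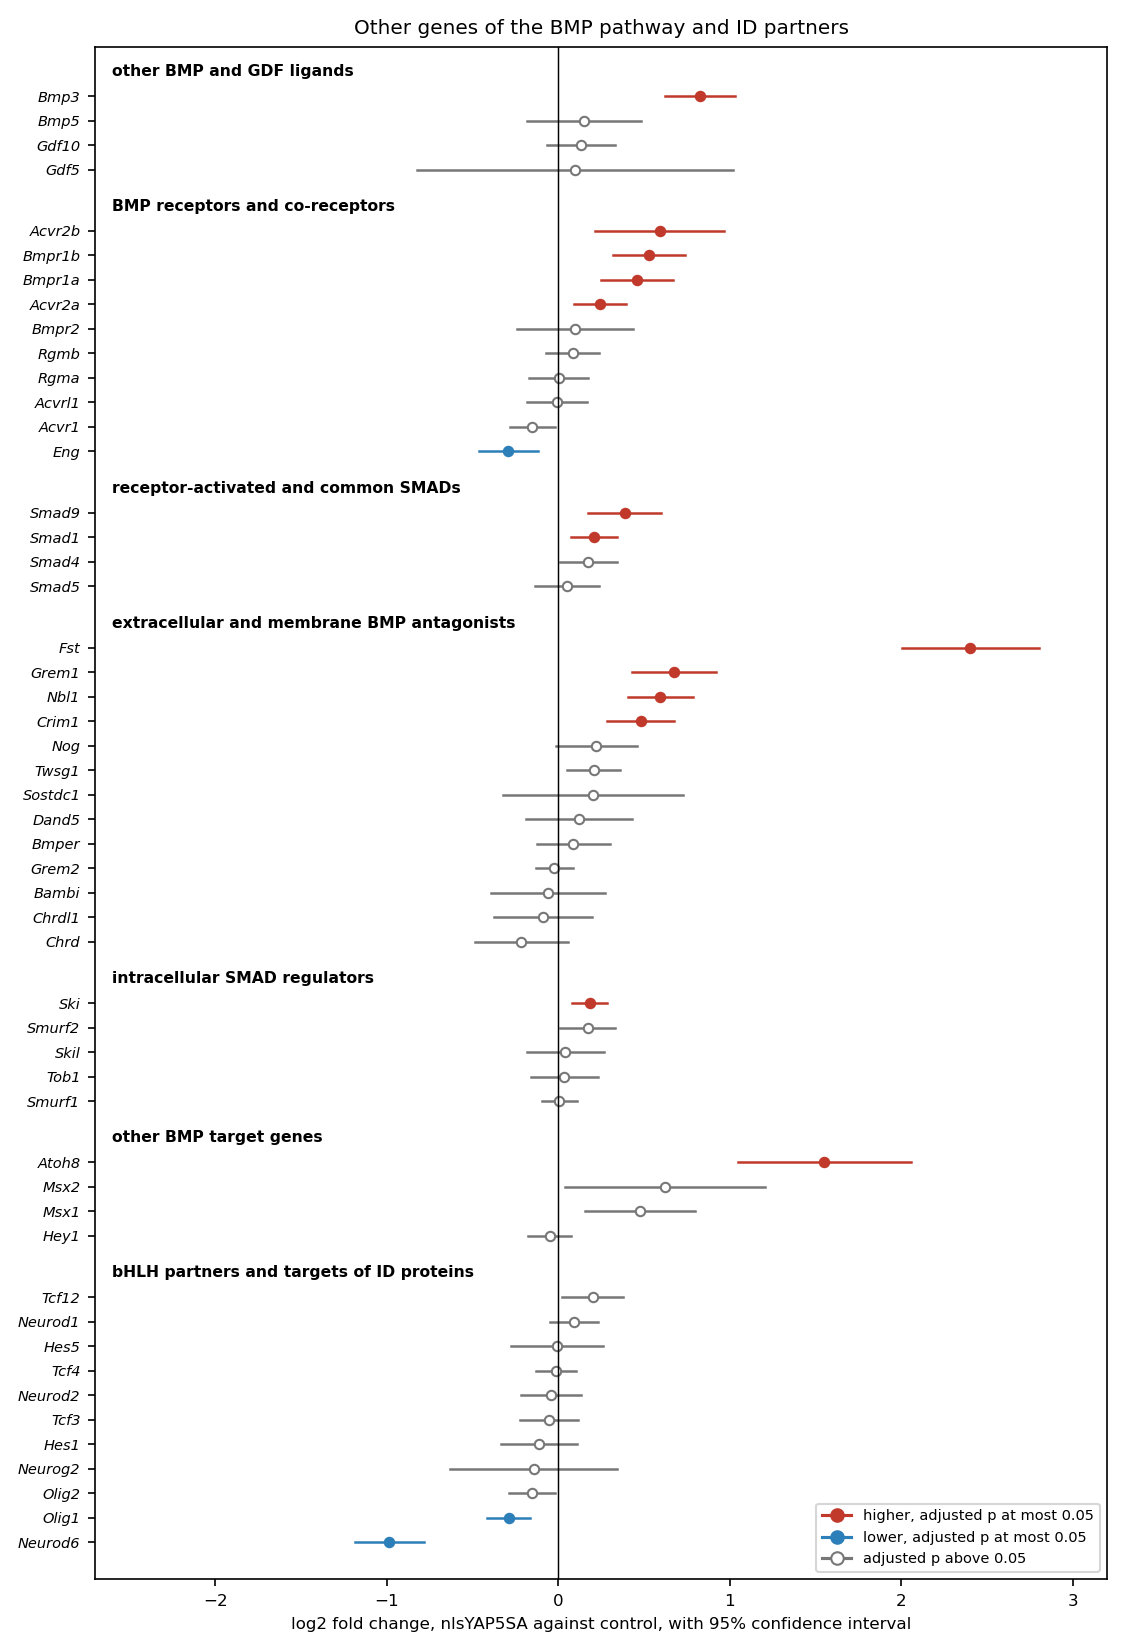
Log2 fold change, nlsYAP5SA against control, with 95% confidence interval for the 51 other genes of the pathway and of the ID partners that passed the filter, Gdf6 left out, grouped by role. Red points (13) were called higher and blue points (3) lower; Fst and Atoh8 lie farthest to the right and Neurod6 farthest to the left.

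The genes whose log2 levels followed each of the 10 most closely were sought over the 13 libraries among 11782 genes (11783 for Smad6), as a description with no test, since the points share genotype groups. For Bmp4 they were Ccn1 (r = 0.976), Efemp1 (r = 0.963) and Fmod (r = 0.962), and for Bmp6 Timp3 (r = 0.974), Lox (r = 0.969) and Il1r1 (r = 0.968). Smad6 was followed by Ehd2 (r = 0.910), Bmp4 (r = 0.902) and Scpep1 (r = 0.895). For the ID genes they were Tpm1 (r = 0.937), Cryab (r = 0.934) and Id3 (r = 0.928) for Id1, S100a6 (r = 0.969), S100a11 (r = 0.966) and Serpinf1 (r = 0.964) for Id3 and Gpc4 (r = 0.969), Vgll3 (r = 0.968) and Tfcp2l1 (r = 0.959) for Id4. Id1 thus had Id3, and Smad6 had Bmp4, among the 3 nearest genes. For the genes not called they were Zfp667 (r = 0.870), Smoc2 (r = 0.841) and Gtpbp10 (r = 0.823) for Bmp2, Bgn (r = 0.917), Aebp1 (r = 0.872) and Col1a1 (r = 0.830) for Bmp7, Eaf1 (r = 0.856), Gltp (r = 0.855) and S1pr1 (r = 0.828) for Smad7 and Rbm22 (r = 0.906), Hspb6 (r = 0.901) and Rhob (r = 0.892) for Id2.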

How the data were processed

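Right hemispheres of 13 mice (5 control, 5 nlsYAP5SA, 3 C57BL/6) were sequenced as mRNA libraries (KAPA mRNA HyperPrep, Illumina HiSeq). The authors used cutadapt 1.5 for trimming and STAR for mapping to GRCm38, and deposited estimated counts per gene from RSEM 1.3.0, not normalized; the strand setting is not given in the sources used here, so reads of antisense partners may be included. Groups and replicate numbers came from the labels. The 10 genes, the pathway and marker lists, and the tests were chosen with earlier results of these data known.

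Estimated counts were rounded and tested in R 4.3.3 with edgeR 4.0.16: TMM factors, filterByExpr (minimum count 10, minimum total 15), quasi-likelihood fits of the 2 groups compared, and Benjamini-Hochberg adjustment over all genes tested, with 0.05 or less as a call. The standard error is the log2 fold change divided by the root of F, and intervals are 95%. CPM are scaled by TMM factors over all 13 libraries; those per kilobase use merged exons of GENCODE M21, a later release than the one counted on. All 10 genes are named, and every pathway gene called against controls; 1 further gene was left out of the pathway lists and is not reported here. Likeness is Pearson's r of log2(CPM + 0.5) among genes averaging 5 CPM or more. In simulated counts for nlsYAP5SA against control (16146 genes run, 99 changed at each size), 66.7% of genes changed 1.5-fold and 88.9% of those changed 2-fold were called.

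Identifiers without a gene name held 0.0649% of the counts. Totals of 20871533 to 25524314 per library limit the precision of low genes, such as Smad6 among the 10. The control and nlsYAP5SA mice came from 2 matings that the labels do not assign, so no litter term was fitted, and p-values measure the spread between these mice. Replicates differed by more than sampling noise (lowest chi-square per degree of freedom 5.67). Same-numbered libraries of control and nlsYAP5SA mice correlated between -0.31 and 0.31 in their deviations from group means, so the numbers do not pair them. Alternatives were DESeq2 1.42.0 (size factors, Wald test), library size alone, other filters, 1 fit of all 13 libraries, the replicate block, Y-linked or choroid plexus level as a covariate, loess offsets for GC content and length, each library left out, and, chosen after the data were seen, subsets with Y-linked transcripts or with choroid plexus markers under 100.0 CPM. Ratios were tested with scipy 1.17.1 and figures drawn with matplotlib 3.10.9.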

Additional observations from a re-analysis of the deposited data

Results flagged for a closer look

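Bmp4 gave both values that stood far from the rest of their group among 54 combinations of gene and group of 5 samples, where about 1 in 20 groups is expected to do so by chance. Control replicate 2 held 6.06 CPM, against 8.31 to 9.16 CPM in the other 4 controls (gap over range 0.727, critical value 0.71). Among nlsYAP5SA mice replicate 3 held 13.04 CPM, against 16.2 to 17.4 CPM in the other 4 (gap over range 0.719). Both were the lowest of their group, and Bmp4 was called higher without either library.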

How the results depend on the processing

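Bmp4, Bmp6, Id1, Id3 and Id4 were called higher against controls in all 23 alternatives, and Smad6 in 20 of 23. The number of the 10 genes called against controls was 5 to 7 (6 to 7 with 1 library left out), against C57BL/6 mice 0 to 5 (3 to 4), and between C57BL/6 and control mice 0 throughout. The 0 against C57BL/6 came from the replicate block and from the libraries with Y-linked transcripts, 2 against 2. No called value changed sign in any alternative; of 1732 values of single genes, 1552 kept their side of the threshold, 151 lost and 29 gained a call.

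Counts over all genes moved more. Against controls (1761) they were 542 with the Y-linked covariate, 334 among libraries with Y-linked transcripts, 659 among those with low choroid plexus markers, and 2687 with the ordinary loess offset, which turned the split from 1200 higher and 561 lower to 1216 and 1471; leaving out 1 library gave 1210 to 1891. Against C57BL/6 mice (1061) they were 1596 by DESeq2's Wald test, 2098 with the ordinary loess offset (787 higher, 1311 lower, against 692 and 369), 47 among libraries with Y-linked transcripts, 613 with low choroid plexus markers and 401 to 1757 with 1 library left out (401 without C57BL/6 replicate 1, 581 without 2, 1757 without 3, and 636, 645 and 509 without nlsYAP5SA replicates 1, 2 and 5). Between C57BL/6 and control mice (28) they were 16 with at least 10 counts in every sample, 59 by the Wald test, 44 in a single fit, 18 with low choroid plexus markers and 19 to 27 with 1 library left out. With the replicate block, where same-numbered libraries share only a number, counts were 1239, 47 and 15, with 6, 0 and 0 of the 10 genes. The causes were not tested.

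Of the 10 genes Smad6 had the fewest counts, 27 to 63 per library; Gdf6, Fst and Atoh8 had lower mean levels in controls.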

Other observations

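Within groups, single libraries were highest or lowest in several of the 10 genes. Among nlsYAP5SA mice replicate 1 had the highest level of 7 of the 10, and replicate 3 the lowest of 5. Replicate 3 also had the lowest summed reactive astrocyte markers (864 CPM, against 986 to 1130 CPM in the other 4) and the lowest summed microglia markers (407 against 484 to 549 CPM), whereas replicate 5 was highest in both lists and replicate 1 in neither. Among C57BL/6 mice replicate 3 was lowest in 8 of the 10 genes. The spread differed between genes: the highest control held 37.6 CPM of Id4 against a lowest of 33.7 CPM, but 1.92 CPM of Smad6 against 1.18 CPM. Whether these patterns go beyond chance was not tested.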
